A study of Mus musculus with 12 samples.

Results

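Regions of the mouse genome that carried H3K27ac in every library, but no H3K4me3 and no H3K9me3, and that did not lie in larger groups of such regions, are described here. They were selected on the deposited peak lists themselves. H3K27ac peaks on chromosomes 1 to 19 were pooled over 4 libraries and merged where they overlapped, and a merged region was kept as distal when it held a peak of all 4 libraries and touched no H3K4me3 or H3K9me3 peak of any library. Distal regions with gaps of 12500 bp or less were joined into groups, and the regions of groups with 1 or 2 members form the isolated set. It holds 4428 regions, which is 33.8% of the 13094 regions with a peak of all 4 libraries and 9.05% of all 48955 merged H3K27ac regions. Of these, 3768 stood alone and 660 came in 330 pairs.

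The libraries came from E14TG2a cells, an established mouse embryonic stem cell line, grown in serum medium with LIF, the MEK inhibitor PD0325901 and the GSK3 inhibitor CHIR99021, which both genotypes shared. One group was wild type (WT) and the other carried an Alkbh5 gene without the stretch for the C-terminal intrinsically disordered region of the protein (del-cIDR). ALKBH5 is a demethylase that removes N6-methyladenosine from RNA. CUT&Tag was used for H3K27ac and H3K4me3, and CUT&RUN for H3K9me3, with 2 libraries for each mark and genotype. Nothing in the labels ties the replicates to separate cultures or clones, so p-values refer only to these libraries, whose differences may be technical.

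H3K27ac is laid down by the acetyltransferases p300 and CBP and marks active promoters and active enhancers. Active promoters also carry H3K4me3, whereas enhancers usually carry H3K4me1, which was not measured here. An H3K27ac site without H3K4me3 is therefore a common working definition of an active enhancer, and stem cells use such sites to keep pluripotency genes on. H3K9me3 marks heterochromatin and silenced repeats.

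On chromosomes 1 to 19 the H3K27ac lists held 25153 and 22810 peaks in WT and 27883 and 32353 in del-cIDR. The H3K4me3 lists held 18367 to 19242 peaks and the H3K9me3 lists 20895 to 41183, with WT replicate 1 of H3K9me3 the shortest. The peak lists carry no read counts, so depth is unknown. The files use GRCm39, for which no genome or gene annotation was used here, so the regions are given by position, without genes or sequence, and markers of stem cells could not be checked.

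The regions were short and single-peaked. Their median length was 1061 bp, with quartiles of 841 and 1334 bp and a range of 349 to 3276 bp. The median number of bases under peaks was 771 and 684 bp in WT replicates 1 and 2, and 787 and 789 bp in del-cIDR replicates 1 and 2. More than 1 peak of the same library was found in 1.24% to 2.66% of the regions. The highest points of the peaks of the 4 libraries lay within a median span of 259 bp, and within 200 bp at 36.9% of the regions. Any 2 libraries placed them a median of 110 to 127 bp apart. That was 123 bp within WT, 110 bp within del-cIDR and 121 to 127 bp between the genotypes, so WT and del-cIDR libraries placed them about as far apart as the WT replicates did.

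Strength is given as the authors' fold enrichment, a ratio of the signal at a peak to the background expected there in the same library. Folds of different libraries are not on 1 scale, so each fold was also ranked within its library among the 13094 regions with a peak of all 4 libraries, with 100 as the highest percentile. The median fold of the isolated regions was 5.29 and 5.33 in WT and 5.38 and 5.57 in del-cIDR. A minimum −log10 q of 5 was reached in all 4 libraries by 2147 regions (48.5%). Library by library, 72.8% and 67.0% of isolated regions reached it in WT and 79.2% and 82.7% in del-cIDR. Among H3K27ac regions that overlapped H3K4me3 and no H3K9me3, the shares were 80.4% and 77.5% in WT and 92.1% and 95.0% in del-cIDR. All 4 libraries put a region in the top 25 percentiles at 281 isolated regions (6.35%), against 10.7% of all regions with a peak of all 4 libraries. All 4 put it in the lowest 25 at 573 (12.9%), against 9.21%. As a description over the 4428 regions, which share libraries, percentiles of any 2 libraries were related with a Pearson's r of 0.65 to 0.76. The del-cIDR replicates were the closest pair, at 0.76. The WT replicates had 0.66, no closer than pairs from different genotypes, which had 0.65 to 0.67.

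The strongest region by mean percentile was chr4:26944191-26945213, with folds of 13.5 and 14.4 in WT and 13.2 and 14.4 in del-cIDR. It lay 225 kb from the nearest H3K4me3 peak and 718 bp from H3K9me3. The second, chr12:68609830-68610178, was also the shortest member at 349 bp. Its folds were 16.6 and 11.0 in WT and 15.2 and 16.3 in del-cIDR, so WT replicate 2 was the low one. The next, chr14:16584866-16585903, had folds of 11.7 and 12.9 in WT and 13.3 and 13.2 in del-cIDR, and lay 3528 bp from H3K4me3.

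At chr13:13394481-13395598 the folds were 11.4 and 12.6 in WT and 11.9 and 14.5 in del-cIDR. At chr14:13788679-13789872 they were 10.1 and 11.9 in WT and 13.4 and 14.4 in del-cIDR, and this was 1 region of a pair. The genotypes did not overlap in fold at that region, although all its percentiles were 97.6 or more. The others of the 10 strongest were chr3:16777892-16779313, chr12:39144174-39145210, chr1:17320499-17321641, chr1:146198659-146199338 and chr13:66459828-66460317, with folds of 10.9 to 13.1. Of these 10 regions, 7 lay more than 100 kb from H3K4me3, and 6 lay within 5 kb of H3K9me3.

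The weakest members had low folds in each library and H3K4me3 nearby. At chr9:30922545-30923247 the folds were 2.07 and 2.32 in WT and 2.15 and 2.07 in del-cIDR, 918 bp from an H3K4me3 peak. At chr4:130349120-130349699 they were 2.18 and 2.66 in WT and 2.13 and 2.10 in del-cIDR, 767 bp from H3K4me3. The other 3 of the weakest 5, chr12:86545083-86545960, chr7:3252505-3253143 and chr8:14066687-14067871, had folds of 2.03 to 2.59 and lay 1836 to 2532 bp from H3K4me3.

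The widest members were not the strongest. The region chr6:91687024-91690299 had 3153 and 2886 bp under peaks in WT and 3105 and 2866 bp in del-cIDR, yet folds of only 2.72 to 3.78. The next widest, chr15:37080603-37083313, had 2531 and 1974 bp in WT and 2669 and 2585 bp in del-cIDR, with folds of 5.41 and 5.90 in WT and 7.004 and 6.99 in del-cIDR. At chr17:34118095-34120914, chr11:79620404-79623402 and chr3:88478907-88481620 the mean width was 2356 to 2418 bp, and the highest points of the 4 libraries lay 1122 to 1637 bp apart. WT replicate 2 split the signal into 2 peaks at these 3 regions and at chr15:37080603-37083313. Over all members, width and fold were weakly related within a library, with a Spearman's rho of 0.24 to 0.30.

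**Figure D1:**
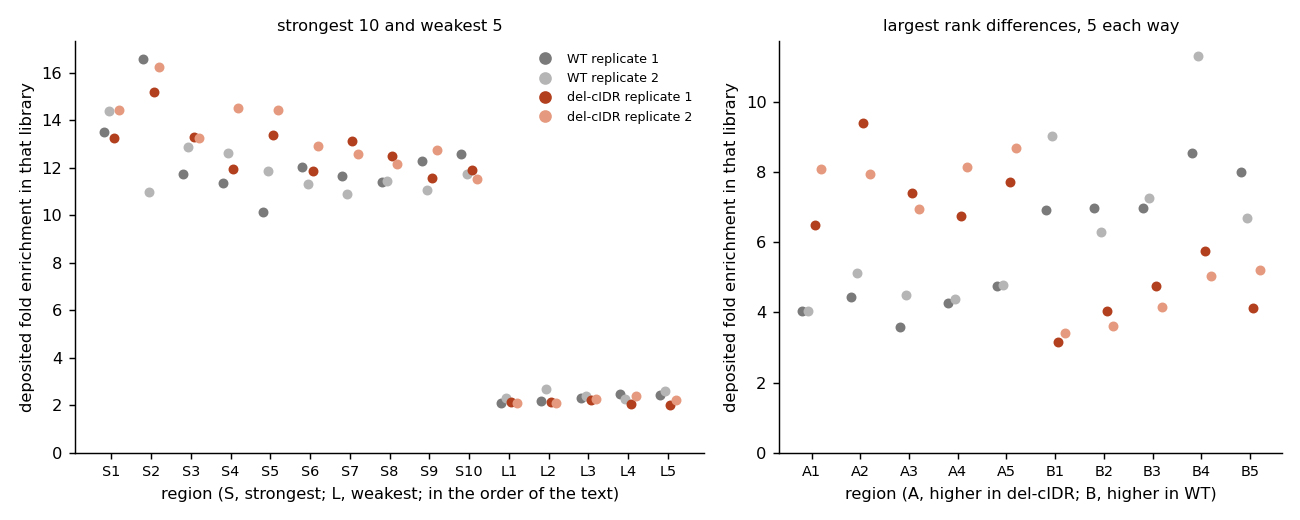
Deposited fold enrichment in each of the 4 H3K27ac libraries (points, 1 per library) for the 10 strongest and 5 weakest isolated regions (left) and for the 5 regions with the largest rank difference in each direction between genotypes (right). The strongest lie between 10.1 and 16.6, the weakest between 2.03 and 2.66, and the genotypes do not overlap in the right panel by construction.

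The rule leaves most of the regions close to some other peak, so "isolated" refers only to distal regions found in all 4 libraries. An H3K4me3 peak or another H3K27ac region lay within 12500 bp of 3241 of the 4428 regions (73.2%). For 2601 (58.7%) it was an H3K27ac region found in only 1 to 3 libraries. The median gap to any other H3K27ac region outside the set was 7546 bp. Only 664 regions (15.0%) had no further peak of any of the 3 marks within 12500 bp. The median gap between neighbouring members was 214 kb, with quartiles of 56.3 and 651 kb. The largest stretch between members ran from 40801210 to 49361825 on chromosome 2, 8.56 Mb. The densest 1-Mb window started at 88 Mb of chromosome 11 and held 17 members, followed by the window at 36 Mb of chromosome 1 with 14.

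Regions just inside and just outside the limits of the rule had these values. The pair with the widest gap still joined, 12480 bp, was chr6:14486547-14487450 and chr6:14499931-14500916, with folds of 6.12 to 8.13 and 8.45 to 10.1. The closest regions left apart, with a gap of 12525 bp, were chr16:35582680-35584148 and chr16:35596674-35598867, with folds of 4.55 to 7.49 and 3.52 to 5.62. Groups of 3, just outside the limit, held 156 regions with a median fold of 4.24 in each WT library and of 4.04 and 4.27 in del-cIDR. The pairs just inside it had 4.73 and 4.78 in WT and 4.84 and 4.80 in del-cIDR. A further 2912 regions without other marks had a peak in 3 of the 4 libraries, with median folds of 4.503 to 4.63. WT replicate 2, the shortest list, was the one without a peak at 1152 of them, and del-cIDR replicate 2, the longest, at 377. An H3K4me3 or H3K9me3 peak of a single library kept out 829 regions, 681 of them through H3K4me3, and their median folds were 5.43 and 5.56 in WT and 5.71 and 5.99 in del-cIDR.

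Among the members, fold went with the distance from H3K4me3 in every library. The rule had already removed every region that touched an H3K4me3 peak, so the near bins hold only what was left there. How far this removal shapes the order by distance, and the test of it below, was not tested. Among the 382 regions up to 2 kb from an H3K4me3 peak, the median fold percentile was 20.2 and 19.9 in WT and 15.7 and 13.99 in del-cIDR. Among the 667 regions more than 100 kb away it was 67.8 and 64.3 in WT and 64.1 and 60.5 in del-cIDR. The 3 bins between them lay in order in every library. Regions within 5 kb lay below those over 100 kb by 43.4 ± 2.21 percentiles (mean and SD over n = 4 libraries, exact sign-flip test over libraries, two-sided, p = 0.125, the smallest that 4 libraries allow, adjusted p = 0.188 by Benjamini-Hochberg over 9 tests of neighbours).

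The −log10 q did not follow this order. Its median was 7.79 and 7.02 in WT and 8.99 and 10.6 in del-cIDR up to 2 kb, 6.68 and 6.09 in WT and 7.48 and 8.32 in del-cIDR at 5 to 20 kb, and 8.18 and 7.09 in WT and 9.71 and 11.04 in del-cIDR beyond 100 kb. The difference between regions within 5 kb and over 100 kb was negative in 3 of 4 libraries, with a mean of -0.51 ± 0.49 (SD, n = 4, exact sign-flip p = 0.25, adjusted p = 0.281). Nor did width separate them, with a mean of -5.0 ± 24.1 bp (SD, n = 4, exact sign-flip p = 0.875). Since fold is relative to the background expected at the site, the authors' background enters the fold percentiles, and its part in the order by distance was not tested.

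Regions near H3K9me3, the heterochromatin mark, were the stronger ones by fold and by −log10 q. An H3K9me3 peak lay within 5 kb of 940 isolated regions (21.2%). In that set the median fold percentile was higher than in the other 3488 regions by 24.5 ± 1.78 and the −log10 q by 2.55 ± 0.97, and the peaks were wider by 60.5 ± 27.1 bp (SD, n = 4 libraries each). Each of these differences had the same sign in 4 of 4 libraries (exact sign-flip p = 0.125 each, adjusted p = 0.188 over 9 tests), so none could pass a threshold of 0.05. Among the 100 members with the highest mean percentile, 61 had H3K9me3 within 5 kb and 5 had H3K4me3 within 5 kb. Among the 100 lowest the counts were 11 and 77. Over all 4428 members the shares were 21.2% with H3K9me3 and 22.7% with H3K4me3 within 5 kb. Regions that touched either mark are outside all these counts, by the rule.

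The relation to H3K9me3 was found both near to and far from H3K4me3. More than 20 kb from H3K4me3, the median fold percentile was 71.4 and 68.4 in WT and 66.7 and 65.4 in del-cIDR for 568 regions with H3K9me3 at 5 kb or less. For the 1503 regions without it there it was 52.9 and 48.4 in WT and 44.5 and 42.3 in del-cIDR. At 20 kb or less from H3K4me3, the medians were 49.8 and 48.4 in WT and 44.2 and 41.4 in del-cIDR for 372 regions with H3K9me3 nearby, and 29.9 and 30.7 in WT and 24.6 and 21.7 in del-cIDR for 1985 without. A peak within 2 kb in a single H3K9me3 library went with a mean percentile of 60.3 (median of 212 regions), and one in all 4 H3K9me3 libraries also with 60.3 (median of 78 regions), against 38.04 for the 3875 regions with none. The share of regions with H3K9me3 within 5 kb was 10.5% for H3K27ac regions that overlapped H3K4me3 and 6.81% for clustered distal regions.

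**Figure D2:**
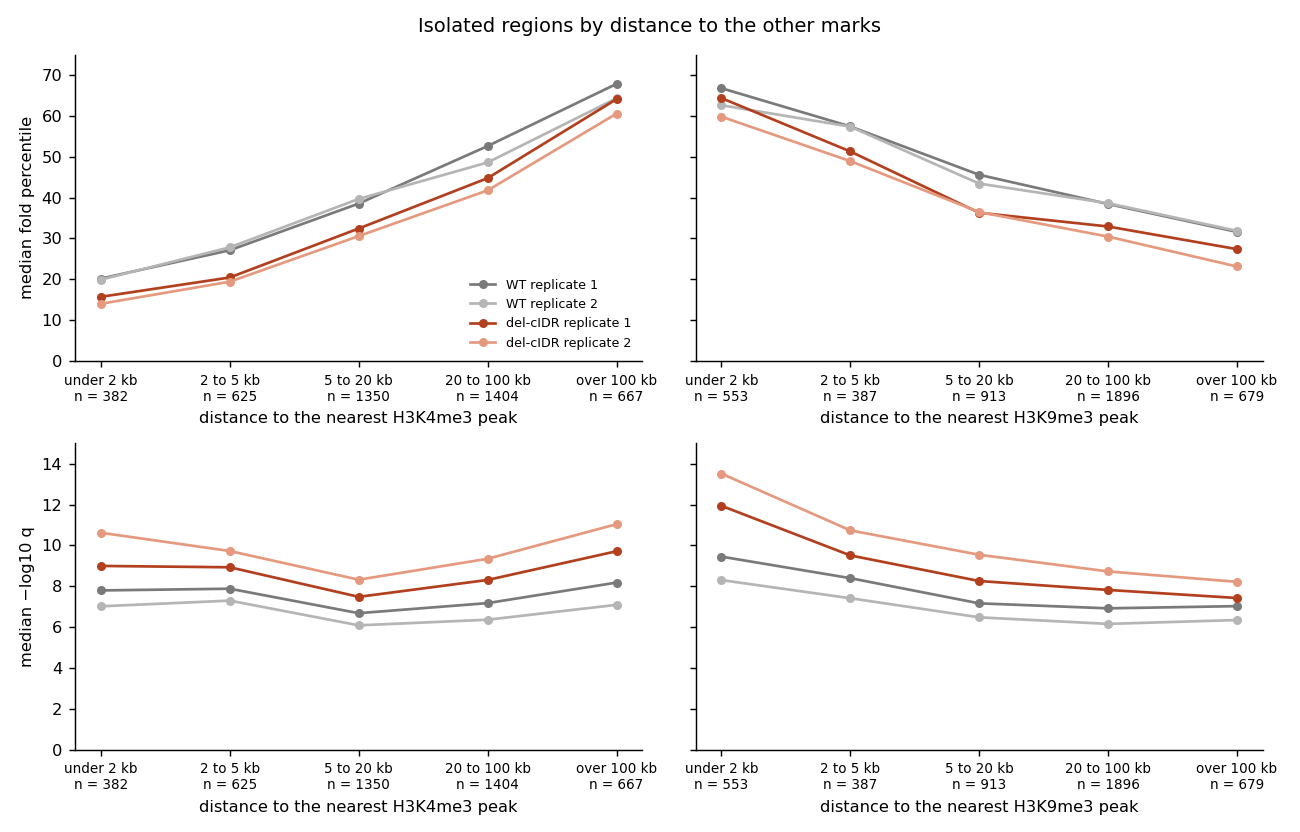
Median fold percentile (top) and median −log10 q (bottom) of isolated regions in bins of distance to the nearest H3K4me3 peak (left) and H3K9me3 peak (right), 1 line per H3K27ac library. With distance from H3K4me3 the fold percentile goes from 13.99 to 20.2 up to 60.5 to 67.8 while the −log10 q shows no such order, and nearest to H3K9me3 both are at their highest in all 4 libraries.

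Members of pairs had lower folds than single regions. Their median fold percentile was 29.1 and 27.9 in WT and 25.4 and 20.8 in del-cIDR, and that of single regions 46.7 and 44.6 in WT and 39.1 and 37.4 in del-cIDR. The difference was -16.2 ± 1.73 (SD, n = 4 libraries, lower in 4 of 4, exact sign-flip p = 0.125, adjusted p = 0.188). In −log10 q the pairs were slightly higher, by 0.35 ± 0.25 (SD, n = 4, higher in 4 of 4, exact sign-flip p = 0.125). The 664 regions without any peak within 12500 bp had median percentiles of 56.5 and 51.4 in WT and 49.2 and 45.7 in del-cIDR.

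The isolated regions were next compared with 2 other sets of regions found in all 4 libraries. Clustered distal regions, in groups of 3 to 5, numbered 191, and they carried no other mark either. Their median fold percentile was 17.7 and 13.96 in WT and 10.9 and 12.3 in del-cIDR, so that isolated regions lay higher by 25.8 ± 2.26 (SD, n = 4 libraries, higher in 4 of 4, exact sign-flip p = 0.125, adjusted p = 0.125 over 4 tests). The sets did not part in this way by −log10 q, which was 7.33 and 6.55 in WT and 8.37 and 9.44 in del-cIDR for isolated regions and 7.45 and 6.28 in WT and 9.05 and 10.2 in del-cIDR for clustered ones. Ranked by −log10 q, the difference was -1.505 percentiles (exact sign-flip p = 0.375, n = 4), in the reverse direction. Widths differed by 7.75 ± 8.26 bp (SD, n = 4, exact sign-flip p = 0.125, adjusted p = 0.125), and the direction changed with the way regions were built and without either WT library, at -8.83 bp without replicate 1 and -1.33 bp without replicate 2.

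The second set was the 7985 H3K27ac regions that overlapped H3K4me3 and no H3K9me3, which are mostly promoter-type sites by their marks. The H3K4me3-overlapping regions were stronger and wider than the isolated regions in each library. Their median fold percentile was 53.2 and 54.1 in WT and 56.9 and 58.1 in del-cIDR, and isolated regions lay lower by 16.1 ± 6.47 (SD, n = 4, lower in 4 of 4, exact sign-flip p = 0.125, adjusted p = 0.125). Their median width was 821 and 762 bp in WT and 911 and 938 bp in del-cIDR, and isolated regions were narrower by 100 ± 44.6 bp (SD, n = 4, narrower in 4 of 4, exact sign-flip p = 0.125, adjusted p = 0.125).

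**Figure D3:**
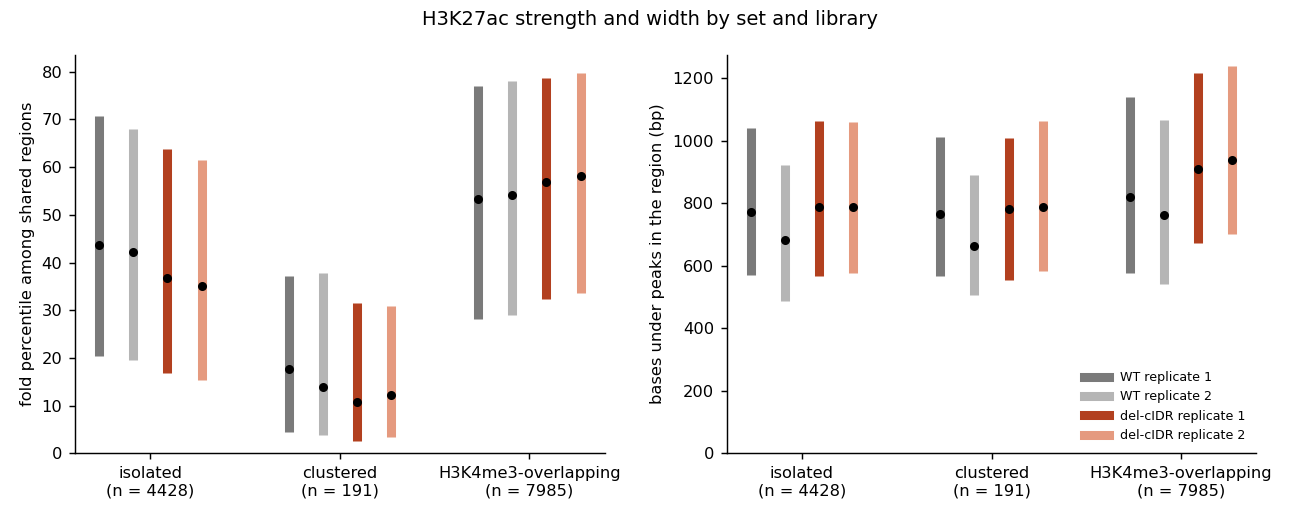
Fold percentile (left) and bases under peaks (right) of isolated, clustered and H3K4me3-overlapping H3K27ac regions in each of the 4 libraries. Dots are medians and bars run from the lower to the upper quartile, and isolated regions lie between the other sets in fold percentile but close to the clustered ones in width.

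Relative to the H3K4me3-overlapping regions, the isolated regions ranked lower in del-cIDR than in WT. Their median fold percentile was 43.7 and 42.3 in WT and 36.9 and 35.0 in del-cIDR, with both del-cIDR libraries below both WT libraries. The means were 36.0 ± 1.28 and 43.0 ± 1.04 (SD, n = 2 each), a difference of -7.04 (exact permutation test of 2 against 2, two-sided, p = 0.333, the smallest this design allows, adjusted p = 0.333 over 2 tests). Percentiles are shared out among all regions, so a lower place for one set means a higher place for another. The H3K4me3-overlapping regions lay 3.83 percentiles higher in del-cIDR.

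The deposited folds, unranked, give the same order of the sets, but the medians of both sets were higher in del-cIDR. The median −log10 q of isolated regions was also higher, at 6.94 ± 0.55 in WT and 8.90 ± 0.76 in del-cIDR (SD, n = 2 each). The median fold of isolated regions was 5.31 ± 0.03 in WT and 5.47 ± 0.13 in del-cIDR, and that of H3K4me3-overlapping regions 5.74 ± 0.10 and 6.54 ± 0.33 (SD, n = 2 each). Within a library, the median fold of isolated regions was 0.933 and 0.918 times that of H3K4me3-overlapping regions in WT, and 0.854 and 0.822 times in del-cIDR (exact permutation p = 0.333, n = 2 each). For width the ratio was 0.939 and 0.898 in WT and 0.864 and 0.841 in del-cIDR (exact permutation p = 0.333, n = 2 each). Isolated regions were themselves not narrower in del-cIDR, with 788 ± 1.41 bp against 727.5 ± 61.5 bp in WT (exact permutation p = 0.333, adjusted p = 0.333, SD over n = 2 each), and WT replicate 2 was the low library. The difference of 60.5 bp was 104 bp without WT replicate 1 and 26.5 bp without WT replicate 2. The del-cIDR lists were longer, and with all lists of equal length the difference in percentile was -7.01. Cutting the lists left the fold of each kept peak as it was, so a part of read depth was not tested.

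Region by region, 1230 isolated regions (27.8%) had a higher percentile in both WT libraries than in both del-cIDR libraries, and 606 (13.7%) the reverse. Over all 13094 regions with a peak of all 4 libraries these shares were 20.4% and 19.7%, nearly even. Among H3K4me3-overlapping regions they were 15.9% and 23.2%, and among clustered distal regions 26.2% and 12.04%, close to the isolated ones. Among the isolated regions that did not overlap between genotypes, those higher in WT had a median difference, del-cIDR minus WT, of -21.6 percentiles. For those higher in del-cIDR it was 18.8. Both sets had middling strength, with a median mean percentile of 41.1 and 41.9. Leaving out any 1 library lets more regions separate, and then 40.4% to 45.9% were higher in WT, with 33.3% to 37.7% over all regions, and 24.2% to 30.4% were higher in del-cIDR, with 32.8% to 36.4% over all regions. No single region can pass a test of 2 libraries against 2.

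**Figure D4:**
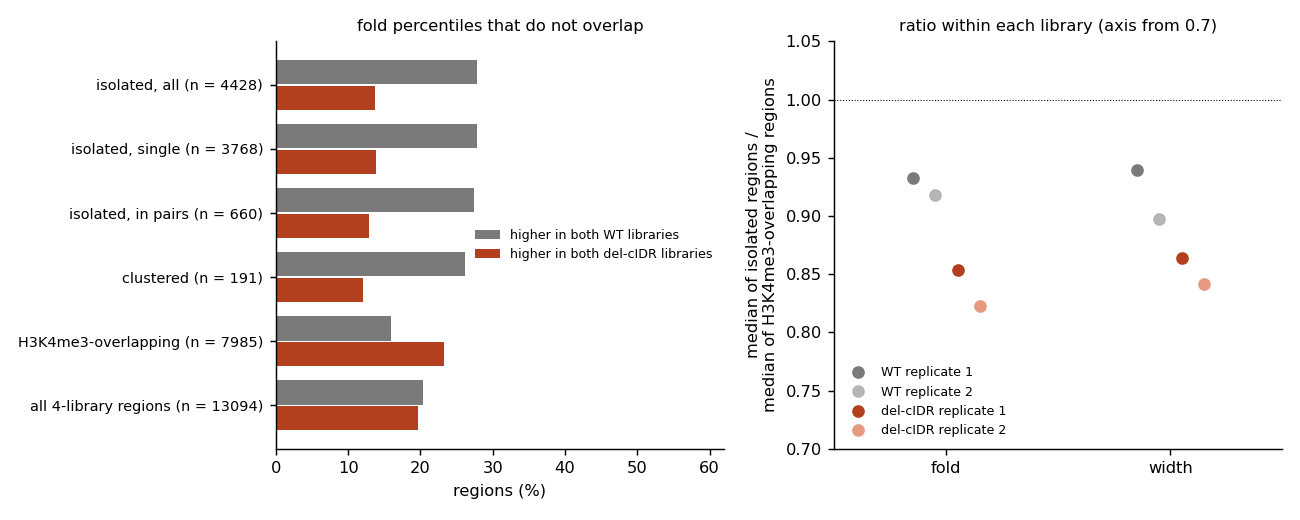
Left, the share of regions whose fold percentiles do not overlap between genotypes, by set and direction. Right, the median fold and width of isolated regions over those of H3K4me3-overlapping regions in each library, on an axis that starts at 0.7. In the isolated set more regions are higher in WT (27.8% against 13.7%), and both ratios are lower in both del-cIDR libraries.

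The region with the largest difference in favour of WT was chr2:146760086-146761511. Its folds were 6.93 and 9.02 in WT and 3.16 and 3.40 in del-cIDR, which are percentiles of 78.0 and 94.2 against 2.50 and 3.20. The −log10 q was 9.58 and 15.5 in WT but 1.41 and 2.01 in del-cIDR, near the lowest listed value of 1.30. The highest points of the 4 libraries lay up to 791 bp apart there. At chr6:120041423-120042168 the folds were 8.54 and 11.3 in WT and 5.75 and 5.04 in del-cIDR, with −log10 q of 28.5 and 35.3 against 6.87 and 5.83. At chr3:95224587-95225370 they were 8.01 and 6.70 in WT and 4.13 and 5.21 in del-cIDR, 974 bp from an H3K4me3 peak. The other 2 of these 5, chr5:21872043-21872981 and chr6:30320546-30321554, had folds of 6.28 to 7.24 in WT and 3.60 to 4.74 in del-cIDR.

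In the other direction, chr16:22020250-22021492 had folds of 4.04 in each WT library and 6.48 and 8.09 in del-cIDR. Its peaks covered 688 and 469 bp in WT and 1228 and 1138 bp in del-cIDR, and H3K4me3 lay 709 bp away. At chr4:11141357-11142173 the folds were 4.45 and 5.13 in WT and 9.40 and 7.94 in del-cIDR, 173 bp from H3K9me3. The other 3, chr1:58800722-58801812, chr9:45211365-45213198 and chr3:87565260-87565972, had folds of 3.58 to 4.77 in WT and 6.76 to 8.68 in del-cIDR. These 10 regions were chosen for their difference, so the values describe them and test nothing.

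More regions were higher in WT in the single regions, the pairs and each distance bin. The shares were 27.8% against 13.8% in single regions and 27.4% against 12.9% in pairs. By distance to H3K4me3 the share higher in WT lay between 30.6% at 2 to 5 kb and 22.9% beyond 100 kb, with 13.9% and 15.7% higher in del-cIDR. By distance to H3K9me3 it was 21.3% up to 2 kb and 32.3% beyond 100 kb, with 15.2% and 11.3% higher in del-cIDR. The exception among the subsets examined was the 129 regions with H3K9me3 within 2 kb in exactly 2 libraries, of which 20 (15.5%) were higher in WT and 23 (17.8%) in del-cIDR, both below the 20.4% and 19.7% over all regions. Whether the excess differs between these subsets was not tested.

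The isolated regions were spread over all 19 chromosomes, from 111 on chromosome 19 to 362 on chromosome 11. They made up 27.5% of the regions with a peak of all 4 libraries on chromosome 17 and 39.8% on chromosome 1. For each H3K4me3-overlapping region there were 0.409 isolated ones on chromosome 17 and 0.725 on chromosome 1. Chromosome 13 had the highest median mean percentile, 46.9, and chromosome 7 the lowest, 34.4. The difference between genotypes in the median percentile was negative on 19 of 19 chromosomes, from -12.1 on chromosome 8 to -2.79 on chromosome 9. On 17 of 19 both del-cIDR libraries lay below both WT libraries. On 19 of 19 more regions were higher in both WT libraries than in both del-cIDR libraries. The chromosomes share the 4 libraries and are not replicates.

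**Figure D5:**
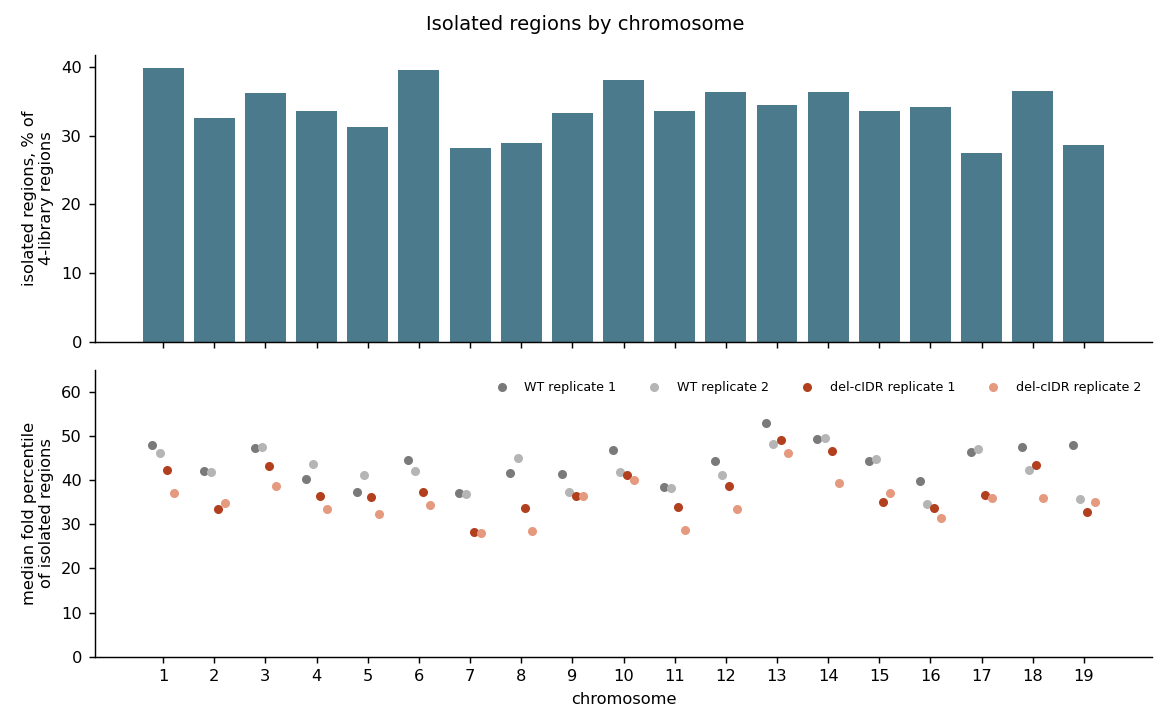
Isolated regions as a share of the regions with a peak of all 4 libraries (top, bars) and their median fold percentile in each library (bottom, points) for chromosomes 1 to 19. The share runs from 27.5% to 39.8%, and del-cIDR medians lie below WT medians in both replicates on 17 of the chromosomes.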

How the data were processed

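Peak lists of 12 libraries were used as the authors deposited them, 1 list per library. Per the submitters' processing notes the build was GRCm39 and the tools included MACS2, BWA, fastp, Picard, SAMtools and featureCounts. Sources used here give neither their versions and settings nor any control library. The deposited lists give for each peak a fold (a ratio over expected background), −log10 values of p and q and, for H3K27ac, a summit. Only peaks past a limit are listed. The lowest −log10 q was 1.30 for H3K27ac and H3K4me3 and 1.00 for H3K9me3, whose lists thus reach weaker peaks. Such values are made within a library, so they were ranked only among regions that all 4 libraries share.

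Peaks were merged where they overlapped by at least 1 bp (Python 3.11.15, pandas 2.3.3, numpy 2.4.6). A region's fold and −log10 q are the highest among its peaks in a library, and its width is the sum of bases under that library's peaks. Sets were compared by the median in each library. Tests were exact sign-flip tests over 4 libraries and exact permutation tests of 2 libraries against 2, two-sided, with Benjamini-Hochberg adjustment. Their smallest p-values, 0.125 and 0.333, show only that all libraries agreed in sign or that genotypes did not overlap, whatever the spread. The sign-flip tests took the libraries of both genotypes together as units. The functions were tested on simulated data. Named regions are the 10 strongest and 5 weakest by mean percentile, the 5 widest, and the 5 with the largest difference each way among those that do not overlap between genotypes. The 3 closest to and farthest from H3K4me3 stand with the closing observations. The tests of neighbours were added after the values were seen. The members, lists and tests were chosen with earlier results of these data known. Gene lists, marker checks and motif counts planned for an annotated GRCm39 genome were not made.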

Additional observations from a re-analysis of the deposited data

How the results depend on the processing

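The lower percentile of isolated regions in del-cIDR kept its direction under all 16 alternatives, at -8.44 to -5.54. Of these, the replicate block leaves the difference at -7.04, and that in width at 60.5 bp, by arithmetic. Only its p-values can differ (exact sign-flip p = 0.5 for each). The labels do not say whether equal replicate numbers mark a shared batch. Replicate 1 minus 2 correlated between genotypes at r = 0.005 over all regions with a peak of all 4 libraries and at 0.016 over isolated regions. Isolated minus H3K4me3-overlapping kept its direction in fold percentile and width under all alternatives run. The width difference from clustered regions, 7.75 bp, kept its direction under 9 of 14 alternatives, up to 55.4 bp with a spacing of 5000 bp, 50.1 bp with 50% cover and 33.6 bp at a −log10 q of at least 5. It reversed or vanished under the other 5. These gave 0 bp with a spacing of 25000 bp, -26.0 bp with peaks merged within 1000 bp and -5.5 bp at equal list length. Without WT replicate 1 it was -8.83 bp and without WT replicate 2 -1.33 bp. Leaving out a del-cIDR library kept the direction, at 11 bp without replicate 1 and 19 bp without replicate 2. The fold percentile difference from clustered regions was -1.505 when regions were ranked by −log10 q, an alternative chosen after seeing the data, like those that leave out chromosomes 6, 8 and 12 or the H3K9me3 list of WT replicate 1. The set held 2219 regions with a −log10 q of at least 5 and 2728 where each library had to cover 50% of the region. Those higher in both WT libraries were then 646 (29.1%, with 20.4% over all regions) and 760 (27.9%, with 20.5%), and those higher in both del-cIDR libraries 323 (14.6%, with 20.5%) and 379 (13.9%, with 19.8%). Leaving out 1 library asks for a peak in 3 libraries and for 3 non-overlapping values only, and the counts were 1921 to 2510 and 1199 to 1560. No read depth is known, and with 2 libraries per genotype the smallest exact p is 0.333.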

Other observations

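The members closest to H3K4me3 lay almost against it. At chr16:18201310-18202510, 2 bp from an H3K4me3 peak, the folds were 3.62 and 2.82 in WT and 3.17 and 5.07 in del-cIDR. At chr5:32773429-32774897, 20 bp away, they were 3.97 and 4.29 in WT and 6.02 and 5.02 in del-cIDR, and at chr11:101571251-101573703, 26 bp away, 4.47 and 3.73 in WT and 3.80 and 3.67 in del-cIDR. The farthest member, chr15:21365999-21367147, lay 3965 kb from any H3K4me3 peak, with folds of 7.96 and 6.86 in WT and 7.68 and 9.44 in del-cIDR. The next 2 were chr15:18533747-18534337, at 2486 kb, and chr5:79353988-79355003, at 1798 kb and 642 bp from H3K9me3.

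The X chromosome is outside the set. The same rule applied there gives 113 regions. Ranked together with the regions of chromosomes 1 to 19, their median fold percentile was 49.5 and 45.8 in WT and 57.1 and 49.7 in del-cIDR, and 29 of them (25.7%) were higher in both WT libraries and 27 (23.9%) in both del-cIDR libraries. The shares over all regions of chromosomes 1 to 19 were 20.4% and 19.7%. Whether X differs from the other chromosomes in this was not tested.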
